A study of Mus musculus with 3 samples.

Results

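Rag1, Rag2, Dntt, Arpp21, Cd24a, Satb1, Tox and Cd1d1 are a set of 8 genes tied to antigen receptor recombination and to the immature lymphocytes in which it takes place. They were followed through splenic tumours by every non-control probe whose RefSeq transcript belongs to one of them, which gave 15 probes for 8 of the 22908 named genes. Gene expression had been measured in 3 splenic tumours of male mice, with 1 Agilent 1-colour mouse array per tumour. The groups were 1 tumour of genotype p53+/−, which has lost 1 copy of the gene for p53, and 2 tumours of genotype LSD1 × p53+/−, numbered 2 and 3 in the labels and called tumour 2 and tumour 3 here. All 3 samples thus carried the p53+/− genotype, and their growth protocol names mice aged 10 weeks and no treatment. The gene Kdm1a encodes LSD1, which removes methyl groups from histone H3. What kind of allele or transgene the LSD1 element is, which promoter drives it, and whether 2 and 3 are mouse lines or single animals are not given in the sources used here. The labels call the tissue a splenic tumour, while the growth protocol describes isolated splenic cells.

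V(D)J recombination assembles the variable parts of antibody and T cell receptor genes. RAG1 and RAG2 together form the recombinase that cuts at the recombination signals, the neighbouring genes that encode them are read in opposite orientation, and terminal deoxynucleotidyl transferase, encoded by Dntt, adds untemplated nucleotides to the opened ends before they are joined. All 3 proteins are textbook markers of thymocytes and of precursor B cells, and the recombinase is silent in most mature lymphocytes of the spleen. Arpp21 encodes an RNA-binding phosphoprotein found in immature thymocytes, Cd24a a surface glycoprotein that is abundant on immature T and B cells and on red cell precursors, Satb1 a chromatin organiser needed in thymocytes, Tox a nuclear protein required for the CD4 T cell lineage, and Cd1d1 the lipid-presenting molecule that selects natural killer T cells.

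The DNA just before the starts of the 3 recombination genes is shown because their signals differed most in kind, with Dntt measured in every tumour and neither Rag gene in any. The sequences are RefSeq's for build GRCm38.p6, 250 bases up to the base before the annotated start, 5′ to 3′ on the strand of the gene. Capitals mark letters that match any of 5 short motifs on either strand: CANNTG (the E box), TGGGAA (an Ikaros core), AGATAA (the core of a site for GATA factors), TTCAAAG (a TCF/LEF core) and TGTGGT (a RUNX core). Matches may overlap. The Rag1 window lies at chr2:101649533-101649782 on the minus strand, the Rag2 window at chr2:101624462-101624711 on the plus strand and the Dntt window at chr19:41029025-41029274 on the plus strand.
Rag1: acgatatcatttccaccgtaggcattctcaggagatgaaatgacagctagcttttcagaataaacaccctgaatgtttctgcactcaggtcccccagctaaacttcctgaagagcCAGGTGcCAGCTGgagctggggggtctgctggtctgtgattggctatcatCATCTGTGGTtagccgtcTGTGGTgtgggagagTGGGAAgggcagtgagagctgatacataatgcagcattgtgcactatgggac
Rag2: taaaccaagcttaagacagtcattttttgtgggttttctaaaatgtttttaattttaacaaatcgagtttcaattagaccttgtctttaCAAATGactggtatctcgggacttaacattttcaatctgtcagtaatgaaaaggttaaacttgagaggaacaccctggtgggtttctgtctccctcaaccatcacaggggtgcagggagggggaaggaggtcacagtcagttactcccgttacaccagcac
Dntt: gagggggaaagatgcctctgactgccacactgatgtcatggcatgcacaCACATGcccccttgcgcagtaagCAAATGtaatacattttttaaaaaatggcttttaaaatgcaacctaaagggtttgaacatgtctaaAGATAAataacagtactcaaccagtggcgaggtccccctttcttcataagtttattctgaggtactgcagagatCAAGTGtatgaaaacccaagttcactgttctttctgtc
The E box letters occurred 3 times before Rag1, once before Rag2 and 3 times before Dntt, and 66.2% of 32851 promoter windows of this length hold them. TGGGAA stood once before Rag1 and in 21.6% of all windows, and TGTGGT stood 2 times before Rag1 and in 14.0% of all windows. AGATAA stood once before Dntt, as in 9.99% of all windows, and TTCAAAG, present in 4.46% of all windows, was in none of these 3. Promoter windows were also on hand for Satb1 (5 starts) and Arpp21 (9 starts), and the E box letters occurred before 2 of the 5 Satb1 starts and before all 9 Arpp21 starts. A match describes letters only.

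The share of spots that the scanner software marked as well above background was between 51.5% and 55.6% per array, and no spot was saturated. Levels below are log2 ratios of the processed signal to the 75th percentile of its array, so that 0 is the brightness of the spot at that percentile. The scanner software's own error for the 22 values of these genes that were well above background was between 0.14 and 0.22 log2 units, which covers the spot and not the animal. The p53 tumour and tumour 3 were on slide 1 and tumour 2 on slide 2. A difference of tumour 2 from either other tumour therefore cannot be told apart from a difference between slides. Of the genes named in the genotypes, Kdm1a stood at 2.07 in the p53 tumour and at 2.71 and 2.29 in tumours 2 and 3, and Trp53 at 0.18, -0.42 and -0.13. T cell, B cell, erythroid, neutrophil, macrophage and dendritic cell markers were present in every tumour, so each sample was a mixture. In such bulk samples fewer cells of a type and less RNA per cell cannot be told apart.

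The recombinase genes were not well above background in any tumour. The Rag1 probe stood at -6.22 in the p53 tumour, -5.96 in tumour 2 and -5.89 in tumour 3, and no array marked it as above background. The 2 Rag2 probes gave -6.40 and -6.42 in the p53 tumour, -6.14 and -6.12 in tumour 2, and -6.09 and -6.08 in tumour 3, again below that mark throughout. The lowest level marked as well above background was -4.23, -3.86 and -3.87 on the 3 arrays in the same order. Arpp21 was the third gene without a measurable signal, although it had 4 probes, for 4 transcripts, which lay between -6.54 and -5.37 in all tumours. These 7 probes had processed signals of 6.55 to 14.3 units, and no fold is given between values of this kind. Signals of this kind were common on the array, since 41.9% of the 56605 non-control probes were not well above background in any tumour. Ptcra, which encodes the pre-T cell receptor alpha chain, was not above background either. Its single probe stood at -6.21, -5.98 and -5.87. It belongs to a list of 26 immature thymocyte genes followed below, of which 21 were above background on at least 1 array.

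**Figure D1:**
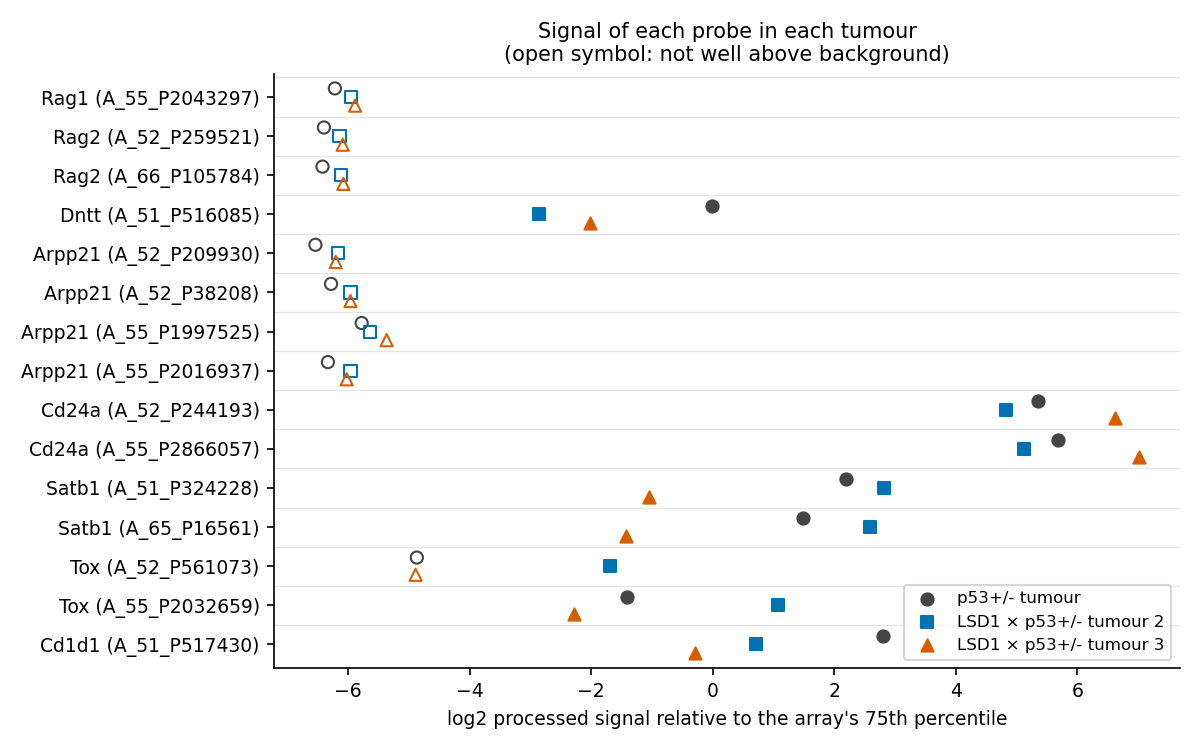
Log2 processed signal relative to the array's 75th percentile (horizontal axis) for each of the 15 probes (rows) in the p53+/− tumour (circles), LSD1 × p53+/− tumour 2 (squares) and LSD1 × p53+/− tumour 3 (triangles), with open symbols for values not well above background. The 7 probes of Rag1, Rag2 and Arpp21 are open throughout, Dntt and Cd1d1 are highest in the p53+/− tumour, Satb1 and Tox are highest in tumour 2, and Cd24a is highest in tumour 3.

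Dntt, the remaining recombination gene of the set, was measured in every tumour and was highest in the p53 tumour. Its single probe (A_51_P516085) stood at -0.02 in the p53 tumour, at -2.86 in tumour 2 and at -2.02 in tumour 3. Both LSD1 tumours lay below the p53 tumour, by 7.15-fold and 4.0-fold, and tumour 2 was the lower of them by 1.79-fold. The mean of the LSD1 tumours was -2.44 ± 0.59 (SD, n = 2). In limma's fit over all probes the difference was -2.42 ± 0.63 (SE), with an adjusted p of 0.892 after Benjamini-Hochberg. The unadjusted p of 0.026 was one of 1491 under 0.05 among 32889 probes. With normexp background correction the differences were -2.08 and -1.54. Among all genes tested, 216 of 15240 (1.42%) were lower in both LSD1 tumours by at least 2.00 log2 units, the smaller of the Dntt differences.

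Cd1d1 had the same order of genotypes. Its probe (A_51_P517430) stood at 2.80 in the p53 tumour, 0.72 in tumour 2 and -0.29 in tumour 3. The LSD1 tumours were 4.22-fold and 8.50-fold below the p53 tumour and 2.01-fold apart, and tumour 3 was the lower. Their mean was 0.21 ± 0.71 (SD, n = 2), and limma gave a difference of -2.58 ± 0.69 (SE, adjusted p = 0.892). Cd1d2 is a near-identical neighbour of Cd1d1 with no probe named for it here, and whether the Cd1d1 probe also binds its transcript was not tested. Dntt and Cd1d1 were the 2 of 5 measured members at least 2-fold below the p53 tumour in both LSD1 tumours, a mark reached by 5.38% of genes. None of the 5 was at least 2-fold higher in both, against 3.48% of genes.

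The summed signals of B cell, dendritic cell and macrophage markers were likewise highest in the p53 tumour. Those of the 12 macrophage markers were 249, 216 and 212 in the p53 tumour and tumours 2 and 3. The sums in tumours 2 and 3 were thus 1.16-fold and 1.18-fold lower. Of the 12, 4 were highest in the p53 tumour and 5 in tumour 3. Of 11 B cell markers on the array, 11 were at least 2-fold lower than in the p53 tumour in tumour 2 and 7 in tumour 3. Their summed signal, in units of the 75th percentile, was 306 in the p53 tumour, 43.9 in tumour 2 and 155 in tumour 3, and Fcer2a in tumour 3 was the one value not above background. Of these 11 markers 9 were lowest in tumour 2, as Dntt was. Cr2 and Fcer2a were lowest in tumour 3, as Cd1d1 was, with levels of 5.30, 1.02 and -2.05 for Cr2 and of 2.92, 0.96 and -4.76 for Fcer2a in the p53 tumour and tumours 2 and 3. Of 9 dendritic cell markers, 5 and 3 had signals at least 2-fold lower in tumours 2 and 3, counting values below background as read. Zbtb46 was 2.16-fold higher in tumour 3. The summed signals were 200 in the p53 tumour and 153 and 148 in the LSD1 tumours. Xcr1 and Cd209a were above background nowhere but in the p53 tumour. Xcr1, 1 of the 5, is bounded only as at least 1.48-fold lower in tumour 2. Siglech, the brightest of the 9 at 7.28 in the p53 tumour, was 1.13-fold and 1.25-fold lower in tumours 2 and 3. Neutrophil and precursor markers went the other way, with summed signals of 148, 301 and 279 in the p53 tumour and tumours 2 and 3. Of these 11, 8 were at least 2-fold higher in both LSD1 tumours (3.48% of genes), and Cxcr2 was lower in both. The part of all these cells in the Dntt and Cd1d1 values was not tested.

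Satb1 and Tox set the LSD1 tumours apart from each other. The Satb1 probe A_51_P324228 stood at 2.19 in the p53 tumour, 2.81 in tumour 2 and -1.05 in tumour 3. Its second probe, A_65_P16561, designed on another transcript, stood at 1.48, 2.59 and -1.42 in the same order. By both probes tumour 2 was the highest and tumour 3 the lowest of the 3. Tumour 2 exceeded tumour 3 by 14.5-fold and 16.1-fold, and the p53 tumour exceeded tumour 3 by 9.43-fold and 7.48-fold. Between tumour 2 and the p53 tumour the probes gave 1.54-fold and 2.16-fold, so only the second passed 2-fold. Among all genes tested 149 (0.978%) were at least as far above tumour 3 in tumour 2 as Satb1 by its brighter probe. The LSD1 means of 0.88 ± 2.73 and 0.58 ± 2.84 (SD, n = 2) describe neither tumour, and limma's differences from the p53 tumour were -1.31 ± 1.89 and -0.90 ± 1.96 (SE, adjusted p = 0.932 and 0.955).

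Tox was high in tumour 2 alone. Its brighter probe (A_55_P2032659) stood at -1.42 in the p53 tumour, 1.07 in tumour 2 and -2.29 in tumour 3. Tumour 2 was 5.62-fold above the p53 tumour and 10.3-fold above tumour 3, and tumour 3 was 1.83-fold below the p53 tumour. The dimmer Tox probe (A_52_P561073) stood at -4.87, -1.70 and -4.89 and was well above background in tumour 2 alone. By this probe tumour 2 was at least 5.78-fold above the p53 tumour and at least 4.50-fold above tumour 3. Those bounds hold for the scaling used here, since normexp, whose added offset shrinks differences of dim spots, gave 1.59 and 1.52 log2 units. The limma difference of the brighter probe was 0.81 ± 1.67 (SE, adjusted p = 0.952) with an LSD1 mean of -0.61 ± 2.38 (SD, n = 2). Tumour 2 exceeded tumour 3 by at least as much in 219 genes (1.44%).

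The summed signal of T cell markers had the same order of tumours as Satb1, as did 12 of the 14 markers, with Cd2 and Thy1, both highest in the p53 tumour, as the exceptions. Of the 14, 13 were at least 2-fold higher in tumour 2 than in tumour 3, 9 were at least 2-fold higher in tumour 2 than in the p53 tumour and 11 at least 2-fold lower in tumour 3 than in the p53 tumour. Their summed signal was 129 in the p53 tumour, 315 in tumour 2 and 64.4 in tumour 3, a 4.89-fold ratio between the LSD1 tumours, and 13 of the 14 were above background in tumour 3, Trat1 being the exception. NK and innate-like T cell markers, 6 in number, summed to 27.3, 43.1 and 6.77. In tumour 2, 3 of them were at least 2-fold lower than in the p53 tumour and Zbtb16 alone was higher (87.6-fold), with Ncr1 not above background in either LSD1 tumour and Zbtb16 not in tumour 3. The part of T cells in the Satb1 and Tox values was not tested.

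**Figure D2:**
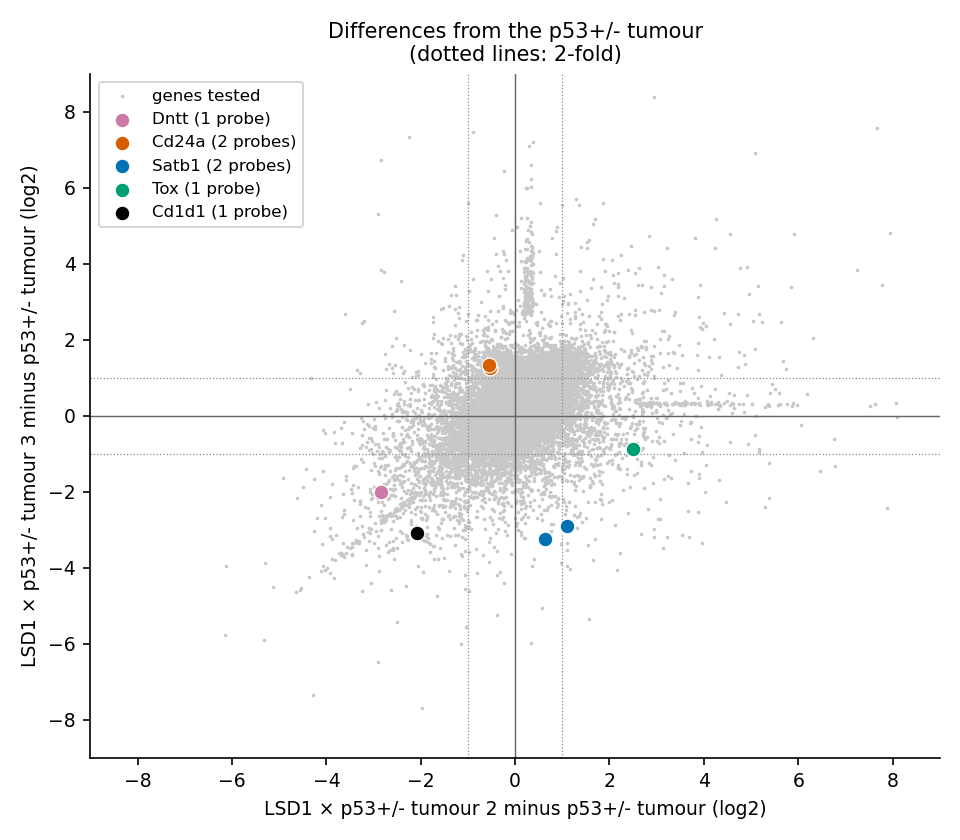
Log2 difference from the p53+/− tumour in LSD1 × p53+/− tumour 2 (horizontal axis) and tumour 3 (vertical axis) for 15240 genes (grey) and for the 7 probes of Dntt, Cd24a, Satb1, Tox and Cd1d1 that were well above background on all 3 arrays (coloured), with dotted lines at 2-fold. Dntt and Cd1d1 lie at the lower left, Satb1 and Tox to the right of 0 and below it, and Cd24a to the left of 0 and above it, and both axes share the p53+/− array.

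Cd24a ranked the tumours in the opposite order to Satb1. Its probes A_55_P2866057 and A_52_P244193 stood at 5.68 and 5.36 in the p53 tumour, 5.13 and 4.82 in tumour 2, and 7.01 and 6.62 in tumour 3. Tumour 3 was the highest by both probes, 2.52-fold and 2.39-fold above the p53 tumour and 3.68-fold and 3.47-fold above tumour 2. Tumour 2 was 1.46-fold and 1.45-fold below the p53 tumour. With the authors' value table the excess of tumour 3 over the p53 tumour stayed under 2-fold by both probes (0.97 and 0.89 log2 units), and with quantile normalization by the second (0.85). An excess at least as large in tumour 3 was found in 8.48% of genes. The LSD1 means were 6.07 ± 1.33 and 5.72 ± 1.27 (SD, n = 2), and limma's differences of 0.39 ± 1.02 and 0.36 ± 0.98 (SE) had adjusted p-values of 0.962 and 0.964.

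The summed signals of erythroid and of cell cycle markers were also highest in tumour 3. Of 11 erythroid markers, all above background in every tumour, 10 were at least 2-fold higher there than in the p53 tumour and none in tumour 2, with summed signals of 622, 470 and 887 in the p53 tumour and tumours 2 and 3, the order of the Cd24a values. All 10 cell cycle markers were at least 2-fold higher in tumour 3 and 5 in tumour 2, with summed signals of 96.6, 149 and 289, although Foxm1 and Mcm2 were slightly higher in tumour 2 (levels of 1.87 and 3.39) than in tumour 3 (1.80 and 3.27). Their part in the Cd24a values was not tested.

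**Figure D3:**
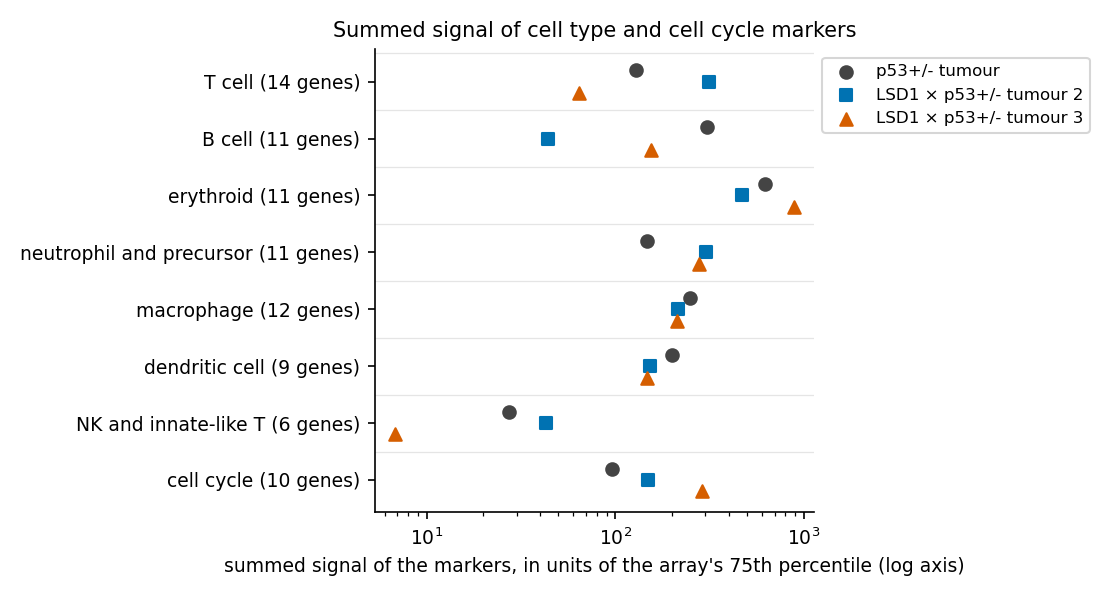
Summed signal of the markers of each list in units of the array's 75th percentile (log axis) in the p53+/− tumour (circles), LSD1 × p53+/− tumour 2 (squares) and LSD1 × p53+/− tumour 3 (triangles). T cell markers sum to 129, 315 and 64.4, B cell markers to 306, 43.9 and 155, and erythroid markers to 622, 470 and 887 in that order.

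The 5 measured members are set here against all genes tested. In tumour 2, Tox alone of the 5 was at least 2-fold higher than in the p53 tumour by its brighter probe (11.7% of genes), and Dntt and Cd1d1 were lower (11.5% of genes). In tumour 3, Cd24a was higher (15.2% of genes) and Dntt, Satb1 and Cd1d1 were lower (11.5% of genes). Between the LSD1 tumours, Satb1, Tox and Cd1d1 were at least 2-fold higher in tumour 2 (11.1% of genes) and Cd24a in tumour 3 (14.0% of genes). Cd1d1 passed that mark narrowly and stayed under it with normexp (0.92 log2 units) and with scaling to the array median (0.85). No probe of the 32889 tested passed limma's adjusted threshold of 0.05 (0% of probes, lowest adjusted p = 0.892), the members' probes included. With 1 tumour against 2 there are 3 arrangements of the samples, and an exact permutation test of a single gene cannot give a two-sided p below 0.333. Of the 531 genes higher and 820 lower by 2-fold in both LSD1 tumours, 39.3% were higher, and that share was 14.7% with the authors' value table and 51.1% with scaling to the array median.

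The other genes of recombination and end joining were expressed in all tumours. Of 16 genes of this list 14 were above background, Rag1 and Rag2 being the exceptions. Dntt was the one gene at least 2-fold lower in tumours 2 and 3 alike (5.38% of all genes tested). None was at least 2-fold higher in both (3.48%). The list medians were -0.14 in tumour 2 and 0.10 in tumour 3, where those of all genes were 0.052 and 0.16. Hmgb2, which encodes a DNA-bending partner of the recombinase, was 1.90-fold and 2.27-fold higher in tumours 2 and 3. Of the genes for the Ku subunits, which bind broken DNA ends, Xrcc5 stood 2.65-fold above the p53 tumour in tumour 2 and 1.40-fold above it in tumour 3. Xrcc6 stood 1.50-fold and 2.38-fold above it. Polm, which encodes the polymerase most closely related to Dntt, was 2.32-fold and 1.38-fold lower. None of these passed limma's adjusted threshold (adjusted p = 0.892 for each).

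Of 25 listed transcription factors of early lymphocytes, 24 were above background by their brightest probe, and the medians were 0.28 in tumour 2 and -0.87 in tumour 3. None was at least 2-fold higher in both LSD1 tumours (3.48% of all genes tested) and 3 were lower in both (5.38%). These were Ebf1 and Pax5, which specify B cells, and Foxp1, a factor of B cell development. Ebf1 was 7.90-fold and 3.66-fold lower, Foxp1 3.55-fold and 2.37-fold lower and Pax5 2.70-fold and 2.05-fold lower, and a dimmer Foxp1 probe gave larger differences, at least 3.85 log2 units in tumour 2 and 3.62 in tumour 3. Foxo1, an activator of the Rag genes in B cell precursors, was 2.59-fold and 1.92-fold lower. Between the LSD1 tumours 9 of the 24, Satb1 and Tox among them, were at least 2-fold higher in tumour 2 and 5 in tumour 3. Those shares over all genes tested were 11.1% and 14.0%. The adjusted p of Ebf1, Foxp1, Pax5 and Foxo1 in limma was 0.892 each.

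The lists of immature thymocytes and of precursor B cells overlap with the 8 genes and were chosen with earlier results of these data known, so they are no independent support. Of 26 thymocyte genes 21 were above background on at least 1 array, with medians of -0.12 in tumour 2 and -0.87 in tumour 3. None was at least 2-fold higher in both LSD1 tumours and 4 were lower in both, which were Dntt, Cd1d1, Cd8a and Cd8b1. Among all genes tested 3.48% were higher and 5.38% lower in both. Cd8b1 and Cd8a, the coreceptor genes of cytotoxic T cells and double-positive thymocytes, had differences of -3.89 and -3.47 log2 units in tumour 2 minus the p53 tumour and of -1.81 and -1.94 in tumour 3 minus the p53 tumour, and the second Cd8a probe gave differences of -1.14 and -1.75. Il2ra, a receptor subunit of early thymocytes and activated T cells, was at least 6.80-fold lower in tumour 2 and 1.64-fold lower in tumour 3. Ly6d was 6.73-fold lower in tumour 2 and 1.04-fold lower in tumour 3. Between the LSD1 tumours 10 of the 21 were at least 2-fold higher in tumour 2 and 6 in tumour 3. Those shares over all genes tested were 11.1% and 14.0%.

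Precursor B cell genes had medians below 0 in tumours 2 and 3, and their surrogate light chain genes were dim. Of 22 listed genes 17 were above background, and the medians were -1.26 in tumour 2 and -0.69 in tumour 3. In tumour 2, 10 of the 17 had signals at least 2-fold lower than in the p53 tumour. In tumour 3, 6 of the 17 did. That mark was reached by 11.5% of all genes tested in each tumour. Vpreb2, 1 of the 10, was not above background in tumour 2 and is bounded only as at least 1.28-fold lower there. None was at least 2-fold higher in both (3.48% of all genes tested) and 4 were lower in both (5.38%). Igll1, which encodes part of the surrogate light chain, was not above background in any tumour, and Vpreb1, which encodes the other part, stood at -2.73 in the p53 tumour, -3.33 in tumour 2 and -3.20 in tumour 3. Vpreb3 was 12.3-fold lower in tumour 2 and 1.11-fold lower in tumour 3. Cd79a, present from precursor to mature B cells, stood below the p53 tumour as well, by 7.57-fold and 1.92-fold.

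**Figure D4:**
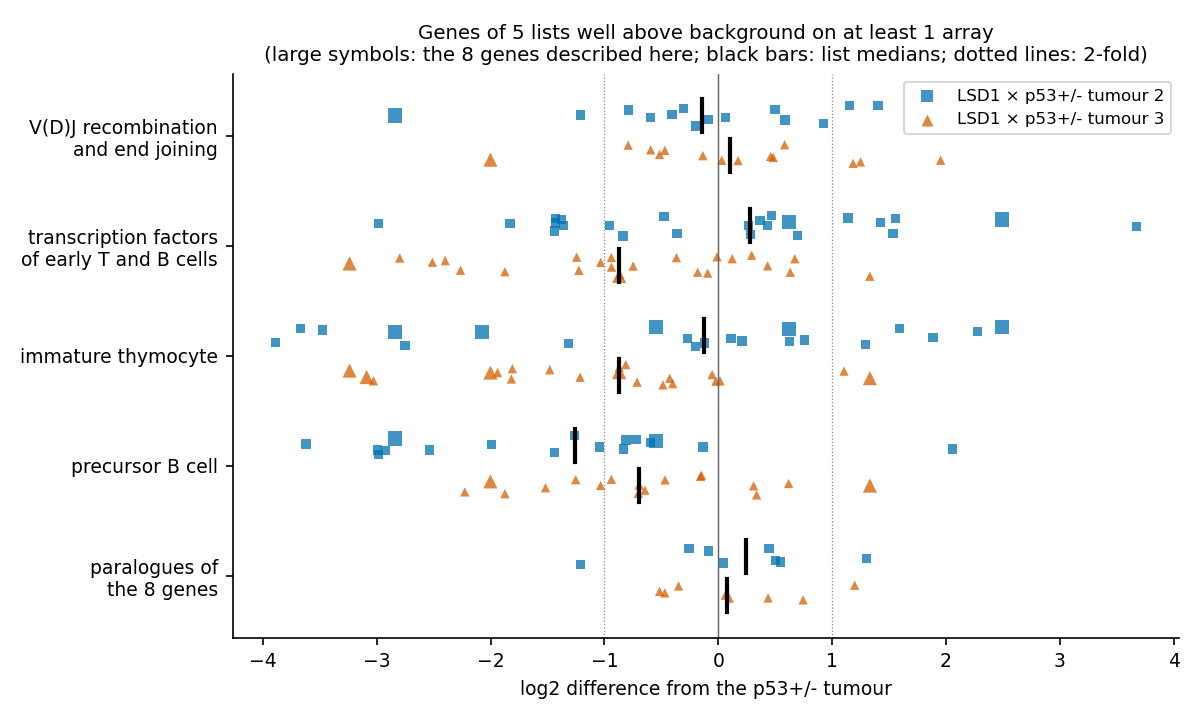
Log2 difference from the p53+/− tumour (horizontal axis) in LSD1 × p53+/− tumour 2 (squares) and tumour 3 (triangles) for the genes of 5 lists above background on at least 1 array, with large symbols for the 8 genes described here, black bars for the list medians and dotted lines at 2-fold. The precursor B cell medians are -1.26 and -0.69, and the transcription factor medians 0.28 and -0.87.

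Genes with the most similar pattern were found by the distance between their 2 differences from the p53 tumour, over 3 arrays and among 12811 other genes above background on all of them. The likeness rests on 3 arrays with 1 in common, and 16 genes lay within 0.5 log2 units of Dntt, 411 of Cd24a, 2 of Satb1, 13 of Tox and 5 of Cd1d1. Nearest to Dntt were 6330407A03Rik (-2.75 and -2.02 in tumours 2 and 3) and Ebf1 (-2.98 and -1.87), at distances of 0.087 and 0.19. Satb1 had Tespa1 (0.76 and -3.03) and Vipr1 (1.02 and -2.95) as neighbours, at 0.25 and 0.49. Tox had P2rx7 (2.41 and -0.83) and Ptgir (2.36 and -1.03), at 0.084 and 0.21. For Cd1d1 these were Klk1b24 (-2.16 and -3.16) and Spns3 (-2.31 and -3.15), at 0.11 and 0.24, and for Cd24a Sh3yl1 (-0.56 and 1.32) and Gm867 (-0.53 and 1.33), at 0.011 and 0.020.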

How the data were processed

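Each tumour was hybridised with Cy3 to 1 array, and the scans were read with Feature Extraction 11.5.1.1 by Agilent according to the headers of the deposited files. The intensity used was the processed signal, from which, per the file headers, the software had removed background and spatial trends, and the flags, error estimates and median pixel intensities came from the same deposited files. A deposited table of the authors held the same intensities times 1 factor per array (1.06, 0.779 and 0.902), its basis unstated, with column medians of 64.2, 54.2 and 43.5. Its values are linear and uncentred.

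Here the processed signals were divided by each array's 75th percentile over 59305 non-control spots (608, 712 and 554) and taken as log2. Outlier spots (113 to 128 per array) were left out and spots of 1 probe averaged, which gave 56605 probes. RefSeq accessions named 32994 probes through a gene table of assembly GRCm38.p6, and 23611 stayed unnamed. The array design is on mm9, so no probe coordinates are given. A gene was taken by its brightest probe. A fold is "at least" where one side failed the background flag, and it is then taken against the lowest flagged level of that array or the probe's own, whichever was higher. The main test was limma 3.58.1 in R 4.3.3 (lmFit, eBayes, Benjamini-Hochberg) on 32889 probes above background on at least 1 array, with 1 residual degree of freedom, taking the lone p53 tumour to vary like the others. Its steps were run on simulated data to check that known changes were recovered. That run does not show how the test behaves with the spread between these tumours. Where 2-fold marks were counted, the flag was required of the higher value, and the lower value was taken as measured. The p-values rest on the spread between the 2 LSD1 tumours and on variances pooled over probes, and no spread among p53 tumours enters them. The files held no mean pixel signal, so normexp (offset 50) used the median signal.

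The members and the lists were chosen with earlier results of these data known. Named genes were all members, up to 4 others per list by mean difference from the p53 tumour among genes above background, the 2 nearest genes per measured member, Kdm1a and Trp53, except a few genes that are not reported here. Ptcra, Igll1, Vpreb1, Vpreb2 and the cell type markers named singly were named after their values were seen. Alternatives were quantile normalization, normexp, the authors' value table, median scaling, other filters and probe rules, and leaving out each LSD1 tumour. The number of arrays limits the precision.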

Additional observations from a re-analysis of the deposited data

How the results depend on the processing

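Among the members' probes, 23 differences between tumours had the brighter side well above background. All 23 kept their sign with quantile normalization, normexp, the authors' value table and scaling to the array median. For the dimmer Tox probe, tumour 3 minus the p53 tumour (-0.020 log2 units) had neither side above background and was not counted. Its sign changed with quantile normalization, normexp and scaling to the array median. Limma called 0 of the tested probes under each of these settings and with other filters on dim probes (1491 with an unadjusted p under 0.05 in the main setting). With 1 LSD1 tumour left out, which leaves the other tumour's own difference, the mean difference of the LSD1 tumours from the p53 tumour also changed. It then ran from -0.54 to 1.26 and from -0.55 to 1.33 for the Cd24a probes, from -3.24 to 0.63 and from -2.90 to 1.11 for the Satb1 probes, and from -0.020 to 3.17 and from -0.87 to 2.49 for the Tox probes. Genes at least 2-fold higher in both LSD1 tumours numbered 531, and 323 with normexp, 219 with the authors' value table and 1777 to 2321 with 1 LSD1 tumour left out. Those lower numbered 820, and 394 with normexp, 1266 with the authors' value table, 416 above background on all 3 arrays and 1749 to 1750 with 1 LSD1 tumour left out. Genes at least 2-fold higher in tumour 2 than in tumour 3 numbered 1692, and 956 with normexp and 951 above background on all 3 arrays. The authors' value table moved the median of all genes to -0.16 and -0.20 in tumours 2 and 3, that of recombination genes to -0.36 and -0.26 and that of the paralogues to 0.031 and -0.29. With quantile normalization the medians of all genes were -0.016 and 0.047 and that of the paralogues in tumour 3 was -0.046, and with normexp the paralogues stood at 0.074 in tumour 2. With scaling to the array median all genes stood at 0.08 and 0.36. Leaving out a tumour leaves 1 condition in place of 2 for the counts, and fewer genes are tested under the stricter filter. The authors' value table and scaling to the array median differ from the main setting by 1 factor per array. They therefore shift all differences of a tumour from the p53 tumour by the same amount. For the changes with quantile normalization and normexp the cause was not tested. Slide as a block leaves no residual degree of freedom, and the genotype difference is then the one within slide 1, between tumour 3 and the p53 tumour. No paired analysis was possible because the groups share no replicate numbers.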

Other observations

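Relatives of the 8 genes by sequence or name were followed on the same arrays. Of 10 on the array, 8 were above background in at least 1 tumour. None was at least 2-fold higher or lower in both LSD1 tumours, against 3.48% and 5.38% of all genes tested. The medians were 0.25 in tumour 2 and 0.080 in tumour 3. Tox2 and Tox3 were not above background in any tumour, and Tox4, an HMG-box gene like Tox, stood at 0.50 and 0.097 log2 units from the p53 tumour in tumours 2 and 3. R3hdm1, related to Arpp21, stood at 0.55 and 0.44 by its brightest probe and at 0.042 and 0.0040 by another. Polb, which encodes the base excision repair polymerase of the same family as Dntt, stood at 0.046 and 0.062, and Poll, a further member of that family, at -0.087 and -0.52. Arpp19, a phosphoprotein gene, was 2.46-fold and 1.68-fold higher.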
